A study of Mus musculus with 4 samples.

Results

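The genes described here are 55 genes of the endoplasmic reticulum (ER) stress response and the integrated stress response, listed by gene symbol. Each was followed through the probe set that carried its symbol alone, and where several did, through the one with the highest mean over the 4 arrays. By this rule 54 of the 55 genes were measured, and Pycr1 was not analysed here. They are 54 of the 19938 genes, and 21789 probe sets, with exactly 1 gene symbol on the array.

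The cells were mesoangioblasts of the adult mouse (AdmMABs), progenitors found along vessels and able to give rise to muscle, grown as a polyclonal population from the tibialis anterior of adult male C57/BL6 mice. All of them had been transduced with a lentiviral vector and were proliferating in DMEM with 20% fetal bovine serum. shPW1 AdmMABs carried 1 short hairpin RNA against PW1 (the product of Peg3), and Ctl AdmMABs carried a scrambled hairpin that matches no mouse sequence. RNA was extracted from each group 2 times and each extract was hybridized to 1 Affymetrix Mouse Gene 1.0 ST array. The methods place the PW1 hairpin in pLV-H1 and name a control hairpin in pLKO.1, so that vector and hairpin cannot be told apart if the array controls carried the latter. Because the replicates were extractions of 1 transduced population per group, p-values here cover just the extraction-to-extraction spread, which can be technical.

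Proteins that fail to fold in the ER are sensed by 3 membrane proteins, Ire1 (Ern1), Perk (Eif2ak3) and Atf6. Activated Ire1 splices Xbp1 mRNA into the form that encodes an active transcription factor, cleaved Atf6 enters the nucleus, and Perk phosphorylates the translation initiation factor eIF2alpha. Phosphorylated eIF2alpha, which is also made by Gcn2 (Eif2ak4) on amino acid shortage and by Hri (Eif2ak1) on haem shortage, lowers overall translation while raising that of Atf4, which activates genes of amino acid supply. Atf6 and spliced Xbp1 raise chaperones and the machinery of ER-associated degradation (ERAD), which returns misfolded proteins to the cytosol. Secretory cells and differentiating muscle cells are known to use these pathways. The arrays gave 1 value for all transcripts of a gene, so spliced Xbp1 was not separated from unspliced Xbp1, and neither eIF2alpha phosphorylation nor Atf4 protein was measured.

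The sequences below show which promoters hold the DNA elements through which this response is known to act. They come from RefSeq windows of 250 bases before to 50 bases after each start site (GRCm38.p6), and 45 of the 55 genes had such a window. Genes without a window were not searched, among them Hyou1, a chaperone called higher below. Both strands were searched for 4 motifs. The first was the ER stress element (CCAAT and CCACG separated by 9 bases) and the second the unfolded protein response element TGACGTGG. The third was the C/EBP-ATF composite element TGATGNAA, and the last was the PW1 motif named by the study (AGT, 2 bases, C, 3 bases, TGGCT). In each sequence the capitals mark the fixed letters of the motif. The ER stress element ends in the letters CCACG, with which the unfolded protein response element begins on its other strand, so these motifs can overlap.

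The C/EBP-ATF element, known as a site of Atf4 and its partners, occurred in 4.51% of the 27025 genes with a window and in 8 of the 45 members. The 7 measured members that hold it are shown because their levels are compared further on, each read in the direction of the motif.
Chac1, chr2:119351033-119351072, minus strand: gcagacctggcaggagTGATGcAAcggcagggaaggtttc
Herpud1, chr8:94386301-94386340, minus strand: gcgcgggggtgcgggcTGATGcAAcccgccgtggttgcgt
Trib3, chr2:152344023-152344062, plus strand: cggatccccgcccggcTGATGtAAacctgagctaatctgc
Vldlr, chr19:27216804-27216843, minus strand: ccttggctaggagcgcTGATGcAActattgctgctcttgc
Slc1a4, chr11:20332694-20332733, plus strand: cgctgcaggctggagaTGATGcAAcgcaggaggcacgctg
Nupr1, chr7:126625557-126625596, plus strand: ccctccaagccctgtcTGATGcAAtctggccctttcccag
Asns, chr6:7693209-7693248, minus strand: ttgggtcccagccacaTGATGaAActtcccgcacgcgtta

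The ER stress element, bound by Atf6 together with the factor NF-Y, occurred in 0.137% of the genes with a window and in 9 members. This element was first described in promoters of ER chaperones, so its presence there is background and not a result. The 4 shown belong to abundant lumenal or membrane chaperones, and the others were in Creld2, Derl3, Dnajc3, Pdia6 and Syvn1.
Hspa5, chr2:34772014-34772053, plus strand: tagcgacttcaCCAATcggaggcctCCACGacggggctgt
Hsp90b1, chr10:86705523-86705562, plus strand: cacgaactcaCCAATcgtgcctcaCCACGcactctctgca
Calr, chr8:84847065-84847104, plus strand: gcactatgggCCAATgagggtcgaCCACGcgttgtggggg
Canx, chr11:50325790-50325829, minus strand: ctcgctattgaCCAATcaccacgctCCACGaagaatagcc

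The PW1 motif occurred in 0.555% of the genes with a window and in 1 member, Atf4, which is shown because PW1 is the gene that was silenced. The unfolded protein response element occurred in 0.714% of genes and in no member with a window.
Atf4, chr15:80255052-80255091, minus strand: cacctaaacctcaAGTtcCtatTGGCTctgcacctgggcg

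The whole windows of Chac1 and Herpud1 are given on the strand of the gene, where the element reads in reverse complement, because these 2 were called and hold an element.
Chac1, chr2:119350992-119351291, plus strand: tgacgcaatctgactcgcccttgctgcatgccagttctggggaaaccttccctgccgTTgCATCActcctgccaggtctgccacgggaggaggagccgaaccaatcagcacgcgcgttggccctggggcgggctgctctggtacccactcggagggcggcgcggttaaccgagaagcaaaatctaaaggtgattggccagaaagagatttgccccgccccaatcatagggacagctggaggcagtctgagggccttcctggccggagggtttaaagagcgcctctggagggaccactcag
Herpud1, chr8:94386179-94386478, plus strand: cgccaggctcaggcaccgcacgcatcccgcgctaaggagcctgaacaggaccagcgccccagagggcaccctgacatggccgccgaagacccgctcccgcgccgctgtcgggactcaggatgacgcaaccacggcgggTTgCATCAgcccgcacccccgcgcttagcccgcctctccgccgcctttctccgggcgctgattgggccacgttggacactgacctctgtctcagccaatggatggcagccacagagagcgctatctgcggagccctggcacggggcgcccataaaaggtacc

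A match describes letters in a window and is neither a bound site nor a cause. Where no match was found, only these letters were absent from this window. The Herpud1 window, for instance, holds attgggccacg, in which attgg is CCAAT on the other strand and ccacg follows at a closer spacing. That spacing was not searched for, so Herpud1 was not counted among genes with an ER stress element.

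**Figure D1:**
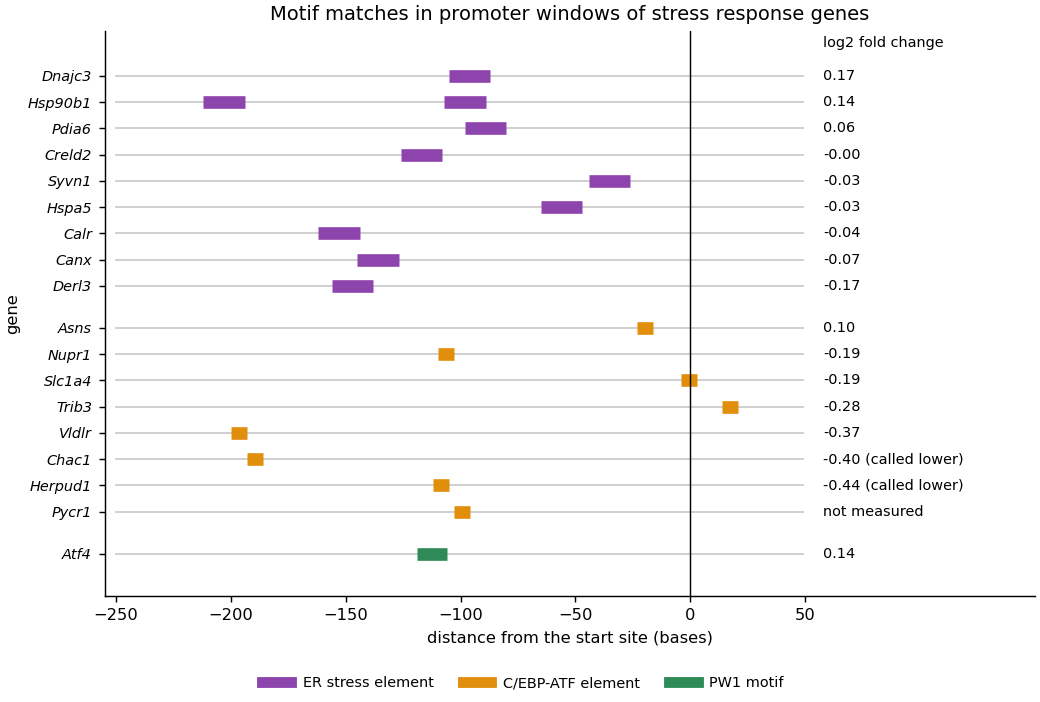
Motif matches in the promoter windows of stress response genes, by distance from the start site in bases, with boxes coloured by motif and the log2 fold change of each gene (shPW1 over Ctl) at the right. Of the 9 genes with an ER stress element 0 were called. Hyou1, called higher, had no window and was not searched. Of the 7 measured genes with a C/EBP-ATF element 2, Chac1 and Herpud1, were called lower. Over all probe sets 9.1% were called, and a difference between the motifs was not tested.

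The values are log2 expression after RMA, the normalisation the authors applied, and differences are shPW1 minus Ctl on that scale. A gene was called higher or lower at a Benjamini-Hochberg adjusted p under 0.05 from limma, adjusted over all 21789 probe sets tested. Peg3 was at 8.67 and 8.70 in the Ctl arrays and at 6.22 and 6.47 in the shPW1 arrays, which is 5.06-fold lower (log2 fold change -2.34 with a standard error of 0.10, limma adjusted p = 0.00428). Over all probe sets the SD of the difference between replicate arrays was 0.15 (Ctl) and 0.17 (shPW1), against 0.27 to 0.29 between a Ctl and a shPW1 array. The number of arrays limits the precision, and an exact permutation test of 2 against 2 arrays cannot give a two-sided p below 0.333. Markers of pericytes and mesoangioblasts were present, with all 7 measured above the dim level, which was set at the median of the table (log2 5.45). The 5 endothelial markers and 5 of 6 leukocyte markers were below that level in every array. Of the myoblast markers 4 of 6 were called lower, and their summed level fell from 11.54 and 11.52 in Ctl to 10.97 and 10.98 in shPW1 (log2 of the sum), with Myod1 3.30-fold lower. In bulk RNA, fewer cells of a type and less RNA per cell cannot be told apart, and the part of this shift in the results on stress genes was not tested.

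Silencing of PW1 went with small changes in both directions among the stress response genes. Of the 54 measured, 5 were called higher (Sdf2l1, Dnajb9, Ern1, Ddit3 and Hyou1) and 5 were called lower (Edem1, Xbp1, Herpud1, Chac1 and Slc6a9), and 44 did not pass. The genes were chosen with earlier results of these data known, so their called share is a description only. It was 18.5%, against 9.1% of all probe sets tested (4.93% higher and 4.17% lower) and 14.2% of the 12895 probe sets at or above the dim level. Of the measured genes 51 were above that level, and the exceptions were Crebrf, Slc7a3 and Vldlr. The groups and lists described below also consist mostly of such genes, so the 14.2% applies beside each of their shares as well. The largest change was the 1.58-fold lower level of Edem1, the only member that differed by 1.5-fold or more, while 2.9% of all probe sets did. The median log2 fold change over the 54 genes was 0.03, against -0.01 over all probe sets, and 27 genes lay within 1.1-fold of no change. The arrays of the groups did not overlap for 44 of the 54 genes (27 higher and 17 lower in shPW1), against 55.5% of all probe sets. Of the 12895 probe sets at or above the dim level, 4760 lay higher and 4152 lower without overlap, a larger share than 55.5%.

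**Figure D2:**
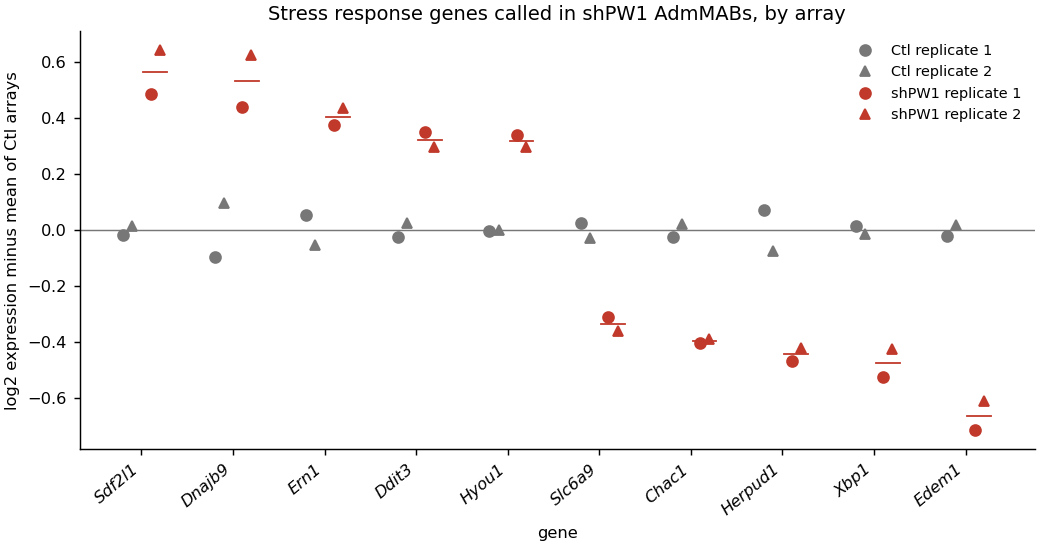
Log2 expression of the 10 called genes in each of the 4 arrays, relative to the mean of the Ctl arrays, with circles for replicate 1, triangles for replicate 2 and red bars for the shPW1 mean. Both shPW1 arrays lay above both Ctl arrays for Sdf2l1, Dnajb9, Ern1, Ddit3 and Hyou1, and below both for Slc6a9, Chac1, Herpud1, Xbp1 and Edem1.

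The calls depended on how the probe sets were tested. With any 1 of the 4 arrays left out no member passed in limma, while 12 to 15 members had an unadjusted p under 0.05, against 17.4% to 24.7% of all probe sets in these fits. With all 35556 rows of the table tested no member passed either, and 19 had an unadjusted p under 0.05, against 19.5% of all rows. The methods' analysis of variance, with its fold change and p thresholds and no adjustment, called 10 members, against 11.7% of all probe sets, and 9 of the 10 were among those called here. None of the 10 called genes changed direction under any setting tried, and the plot of calls by processing gives the value under each. Only the second quantile normalisation and the subtraction of array medians could have reversed a direction. Other settings leave the difference itself unchanged. Leaving out an array cannot reverse it, because the arrays of these genes did not overlap between groups.

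**Figure D3:**
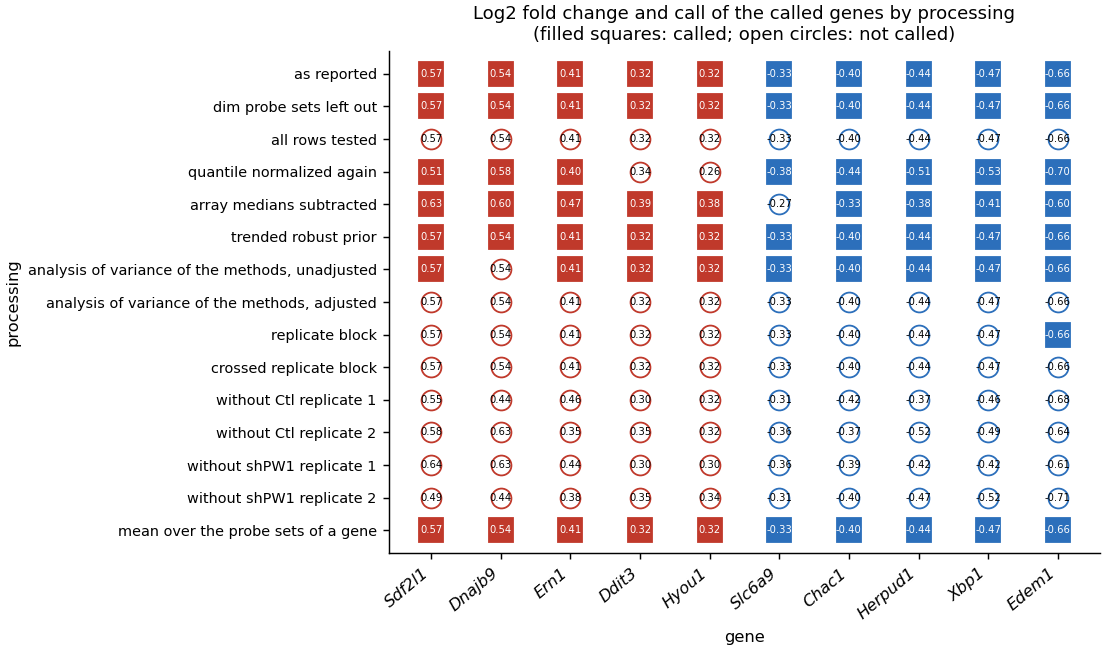
Log2 fold change (shPW1 over Ctl) of the 10 called genes under each way of processing, with filled squares where the gene was called and open circles where it was not. Red is higher and blue is lower in shPW1. Most settings leave the difference unchanged or cannot reverse its sign. The sign of each gene was the same throughout; Edem1 alone was called with the replicate block, and no gene was called with an array left out.

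Among the sensors, Ern1 rose and the other 5 did not pass, so 16.7% were called, against 9.1% of all probe sets. Ern1 encodes Ire1, the kinase and endoribonuclease that splices Xbp1. Its log2 expression was 7.15 and 7.05 in Ctl, against 7.47 and 7.53 in shPW1. Both shPW1 arrays lay above both Ctl arrays, and the difference of 1.32-fold (log2 fold change 0.41 with a standard error of 0.07, limma adjusted p = 0.0364) was larger than the spread within either group. Eif2ak3, which encodes Perk, was at 7.72 in both Ctl arrays and at 7.50 and 7.52 in the shPW1 arrays. The groups were apart and replicates nearly equal, yet the difference of -0.21 did not pass (adjusted p = 0.091 from limma). Atf6, the sensor that is itself cut into a transcription factor, was at 8.58 and 8.59 in Ctl and at 8.68 and 8.65 in shPW1, a difference of 0.08 (adjusted p = 0.425 from limma). Its relative Atf6b differed by 0.08 as well. The eIF2alpha kinases outside the ER had differences of 0.16 (Eif2ak4, sensing uncharged tRNA) and -0.07 (Eif2ak1, sensing haem), and the Eif2ak1 arrays overlapped between groups.

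The transcription factors and feedback regulators moved in both directions, with 1 of 10 called higher, 1 called lower and a median log2 fold change of 0.08. These calls are 20% of the group, against 9.1% of all probe sets. Xbp1, the substrate of Ire1 and an activator of ERAD and secretory genes, fell in shPW1 AdmMABs. Log2 expression of Xbp1 was 9.54 and 9.51 in Ctl and 9.01 and 9.10 in shPW1. The Ctl arrays were both higher by more than the spread between replicates, and the level was 1.39-fold lower in shPW1 (log2 fold change -0.47 with a standard error of 0.07, limma adjusted p = 0.0255). Ern1 and Xbp1 therefore differed in opposite directions, although the ratio of spliced to unspliced Xbp1 is not seen in these values.

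Ddit3 encodes Chop, the factor that Atf4 induces when ER stress is prolonged. It was at 6.67 and 6.72 in the Ctl arrays and at 7.04 and 6.99 in the shPW1 arrays. The groups did not overlap, and Ddit3 rose 1.25-fold (log2 fold change 0.32 with a standard error of 0.06, limma adjusted p = 0.0443), a call lost under a second quantile normalisation. Atf4, whose protein is set mainly by translation, was at 10.44 in both Ctl arrays and at 10.58 in both shPW1 arrays. Replicates of Atf4 were nearly identical, and the difference of 0.14 (95% confidence interval -0.01 to 0.28) did not pass (adjusted p = 0.204 from limma). Its window holds the PW1 motif shown above, which is a description only.

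Trib3 is a pseudokinase induced by Chop that feeds back on the response. Its values were 7.96 and 8.05 in Ctl against 7.73 and 7.72 in shPW1. The arrays were apart, with a difference of -0.28 that did not pass in limma (adjusted p = 0.0653) but did in the methods' analysis of variance. The subunits Ppp1r15a (Gadd34) and Ppp1r15b (Crep), which direct a phosphatase to eIF2alpha and so end its block on translation, were each 0.20 higher without passing (adjusted p = 0.125 and 0.121). The brightest probe set of Ppp1r15b gave this value, and its second, dimmer probe set gave 0.05. Atf5, translated under eIF2alpha phosphorylation as Atf4 is, differed by 0.20. Nupr1, a small stress-induced nuclear protein, differed by -0.19. Cebpg, which pairs with Atf4, and Crebrf, a regulator of the ER stress response, differed by 0.03 and -0.04, with the Crebrf probe set below the dim level.

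**Figure D4:**
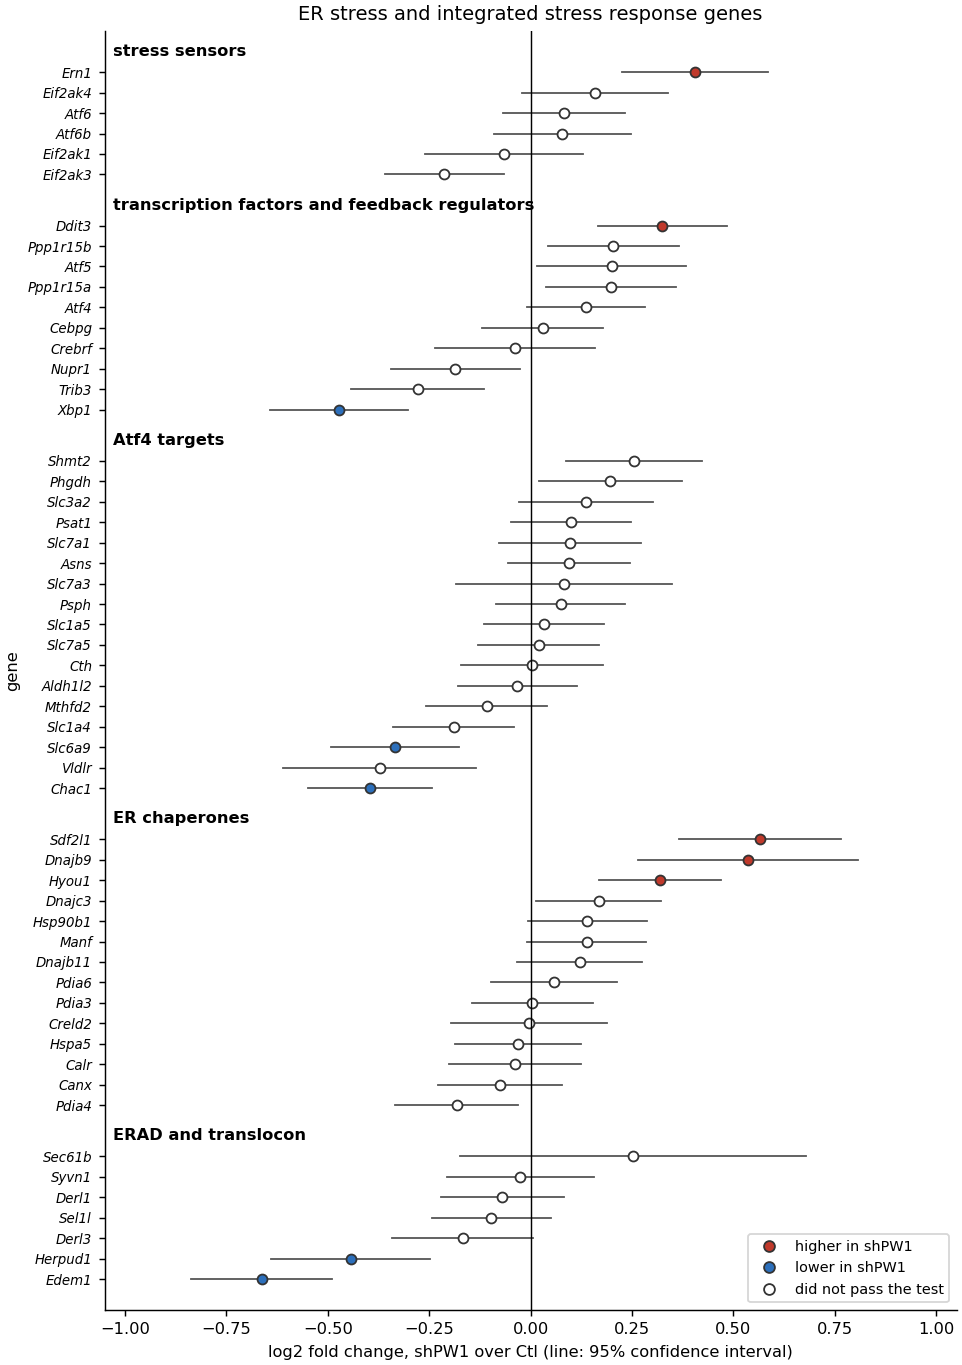
Log2 fold change (shPW1 over Ctl) of each of the 54 measured genes by role, with lines for the 95% confidence interval, and red, blue and open points for genes called higher, called lower and not passing. ERAD and translocon genes lay to the left of 0 apart from Sec61b, and the widest interval was that of Sec61b.

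The genes grouped here as Atf4 targets did not move as 1 block. Of the 17 measured 0 were called higher, 2 were called lower and 15 did not pass, with a median log2 fold change of 0.03. The 2 calls are 11.8% of the group, against 9.1% of all probe sets and 14.2% of those at or above the dim level. Genes placed in other groups are not in these counts, such as Ddit3 (called higher), which Atf4 induces, and Herpud1 (called lower), which holds the C/EBP-ATF element. An unadjusted p under 0.05 was found for 6 of the 17, against 27.7% of all probe sets. Chac1, an enzyme that degrades glutathione and a sensitive target of the Atf4 and Chop branch, fell. Values of Chac1 were 8.49 and 8.53 in Ctl, against 8.11 and 8.12 in shPW1. Replicates stood close together and the groups apart, and the level was 1.32-fold lower in shPW1 (log2 fold change -0.40 with a standard error of 0.06, limma adjusted p = 0.0285). Slc6a9, the glycine transporter Glyt1, was at 8.78 and 8.72 in Ctl and at 8.44 and 8.39 in shPW1. The groups did not overlap and Slc6a9 fell 1.26-fold (log2 fold change -0.33 with a standard error of 0.06, limma adjusted p = 0.0417), a call lost when array medians were subtracted.

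The enzymes of amino acid synthesis did not follow Chac1 and Slc6a9. Asns, asparagine synthetase and a classical Atf4 target, was at 11.66 and 11.64 in Ctl and at 11.73 and 11.76 in shPW1. Both shPW1 arrays were slightly higher, and the difference of 0.10 did not pass (adjusted p = 0.36 from limma). The serine pathway enzymes Phgdh, Psat1 and Psph differed by 0.20, 0.10 and 0.07. Shmt2 and Mthfd2, enzymes of mitochondrial one-carbon metabolism, differed by 0.25 (adjusted p = 0.0828) and -0.11, and Aldh1l2 of the same pathway by -0.03. Cth, which makes cysteine from cystathionine, differed by less than 0.01 and its arrays overlapped.

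Amino acid transporters varied in sign among themselves. Slc3a2 and Slc7a5, the chains of the large neutral amino acid exchanger, differed by 0.14 and 0.02. The cationic amino acid transporters Slc7a1 and Slc7a3 differed by 0.10 and 0.08, the latter below the dim level and overlapping between groups. Slc1a5, which carries glutamine, differed by 0.03. Slc1a4, a carrier of small neutral amino acids, differed by -0.19 (adjusted p = 0.119). Vldlr, a lipoprotein receptor, was below the dim level in every array, at 5.03 and 4.88 in Ctl and 4.66 and 4.50 in shPW1, and its difference of -0.37 did not pass (adjusted p = 0.0782 from limma).

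Grouped by the sequences shown above, 6 of the 7 measured members with a C/EBP-ATF element had both shPW1 arrays below both Ctl arrays, and Asns was the exception. Only Chac1 and Herpud1 of the 7 passed, which is 28.6%, against 9.1% of all probe sets. An unadjusted p under 0.05 was found for 6 (27.7% of all probe sets), and the median log2 fold change was -0.28. Over all probe sets the median was -0.01 and 6102 of 21789 had both shPW1 arrays below both Ctl arrays. At or above the dim level 4152 of 12895 probe sets did. Members without a window, Hyou1 among them, were in neither of these motif groups. The 9 members with an ER stress element had a median of -0.03. Of these 0 were called in limma and 0 passed the methods' analysis of variance, and 1 had an unadjusted p under 0.05, against the same 27.7% (Dnajc3, chosen for naming after its value was seen).

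ER chaperones and folding factors contained 3 of the 5 genes that rose, and 0 of the 14 were called lower. The 3 are 21.4% of the group, against 9.1% of all probe sets. Sdf2l1 is a partner of the Hsp70 chaperone BiP in the ER lumen. It was at 8.73 and 8.76 in the Ctl arrays and at 9.23 and 9.39 in the shPW1 arrays. Both shPW1 arrays were higher by more than the spread between them, and Sdf2l1 rose 1.48-fold (log2 fold change 0.57 with a standard error of 0.08, limma adjusted p = 0.0245). Dnajb9 (ERdj4), a BiP co-chaperone known as a target of spliced Xbp1, was at 5.88 and 6.07 in Ctl and at 6.42 and 6.60 in shPW1. Its replicates were spread more widely than those of the other called genes (SD 0.14 in Ctl and 0.13 in shPW1, n = 2 each), without overlap between groups. Dnajb9 rose 1.45-fold (log2 fold change 0.54 with a standard error of 0.10, limma adjusted p = 0.0483), and it did not pass the methods' analysis of variance. Hyou1, which exchanges the nucleotide of BiP, was at 9.74 and 9.75 in Ctl and at 10.08 and 10.04 in shPW1. Replicates agreed closely and the groups were apart, with a rise of 1.25-fold (log2 fold change 0.32 with a standard error of 0.06, limma adjusted p = 0.0416). A second quantile normalisation ended this call too.

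Hspa5, which encodes BiP and is the usual marker of ER stress, was at 12.002 and 11.99 in the Ctl arrays and at 11.94 and 11.99 in the shPW1 arrays. The arrays overlapped, and the difference of -0.03 (95% confidence interval -0.19 to 0.12) did not pass (adjusted p = 0.792 from limma). Hsp90b1 (Grp94), whose window holds the ER stress element 2 times, differed by 0.14. The lectin chaperones Calr and Canx differed by -0.04 and -0.07. Among protein disulfide isomerases Pdia3, Pdia6 and Pdia4 differed by less than 0.01, by 0.06 and by -0.18 (adjusted p = 0.13 for Pdia4).

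The co-chaperones Dnajc3 (p58IPK, which also restrains Perk) and Dnajb11 differed by 0.17 and 0.12. The deposited table held 2 probe sets for Dnajc3 with the same values in every array, which are 1 measurement. Manf, a secreted folding factor, differed by 0.14 and Creld2 by less than 0.01. The median over the 14 chaperones was 0.09, and 9 differences were above and 5 below 0. Over all probe sets the median was -0.01, with 10378 differences above and 11408 below 0.

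ERAD genes contained the largest fall among the 54 genes. Edem1 encodes a lectin that hands misfolded glycoproteins to degradation and is known as a target of spliced Xbp1. It was at 8.61 and 8.65 in the Ctl arrays and at 7.92 and 8.02 in the shPW1 arrays. The groups were far apart relative to their replicates, and Edem1 fell 1.58-fold (log2 fold change -0.66 with a standard error of 0.07, limma adjusted p = 0.0140). Herpud1, a membrane protein that organises the degradation complex and a target of more than 1 stress branch, was at 9.58 and 9.43 in Ctl and at 9.04 and 9.08 in shPW1. Both Ctl arrays were higher than both shPW1 arrays, and Herpud1 fell 1.36-fold (log2 fold change -0.44 with a standard error of 0.07, limma adjusted p = 0.0361). Xbp1 and the known Xbp1 target Edem1 thus fell while Dnajb9, another, rose.

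The other 5 genes of this group did not pass. The Hrd1 ligase and its partner, Syvn1 and Sel1l, differed by -0.03 and -0.10. Derl1 and Derl3, membrane proteins of the export channel, differed by -0.07 and -0.17. Sec61b, a subunit of the translocon, was at 8.47 and 8.14 in Ctl and at 8.72 and 8.39 in shPW1. The first replicate lay above the second in each group, by more than the difference of 0.25 between groups. In all 3 probe sets of Sec61b the first replicate was the higher in each group, and their differences between groups were 0.25 to 0.29. Counting all 7 genes, 2 were called lower, 0 higher, 6 differences were below 0 and the median was -0.10. The 2 calls are 28.6% of the group, against 9.1% of all probe sets. Over all probe sets 11408 of 21789 differences were below 0.

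Other genes of the same pathways were counted from lists of general pathway knowledge, chosen with earlier results of these data known. From these lists 156 of 168 genes were measured. Of these 8 were called higher and 5 lower, or 8.33%, against 9.1% of all probe sets. Most of the measured genes (150) were at or above the dim level, where 14.2% of probe sets were called. Among 19 further reported Atf4 and Chop targets only Cebpb, a transcription factor, was called, with a log2 fold change of 0.63 (adjusted p = 0.0137 from limma). That is 5.26% of the list, against 9.1% of all probe sets. The 18 aminoacyl-tRNA synthetases had 0 calls in limma, 5 with an unadjusted p under 0.05 (against 27.7% of all probe sets), 1 that passed the methods' analysis of variance, and a median of 0.08.

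Further ERAD genes mostly had differences above 0. Of 20 measured 2 were called higher, or 10%, against 9.1% of all probe sets and 14.2% of those at or above the dim level. They were Ufd1 (listed as Ufd1l, a cofactor of the p97 extraction motor, log2 fold change 0.40, adjusted p = 0.0323 from limma) and Erlin2 (0.37, adjusted p = 0.0408 from limma). The median was 0.14 and 17 differences were above 0, against 10378 of 21789 over all probe sets. The contrast with the 7 ERAD and translocon genes above was not tested. Among 27 further folding enzymes Hspa13 rose (0.46, adjusted p = 0.0228 from limma). The prolyl isomerases Fkbp7 and Fkbp14, which act on secreted proteins such as collagens, fell (-0.45 and -0.41, adjusted p = 0.0312 and 0.0249 from limma). The 3 calls are 11.1% of that list, against 9.1% of all probe sets and 14.2% of those at or above the dim level.

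Of 24 translocon, signal peptidase and oligosaccharyltransferase genes only Ssr2 was called, with a log2 fold change of 0.33 (adjusted p = 0.0385 from limma). That is 4.17% of the list, against 9.1% of all probe sets. Among 19 other regulators, Impact, an inhibitor of Gcn2, rose by 0.57 (adjusted p = 0.0147) and Rtcb, the ligase that joins spliced Xbp1 exons, by 0.36 (adjusted p = 0.0360). Among 6 transcripts reported to be degraded by Ire1, 33.3% were called. Col6a1 fell by 0.85 (adjusted p = 0.00859 from limma) and Pdgfrb fell by 0.45 (adjusted p = 0.0225 from limma). Both of these also mark stromal cells, Pdgfrb being counted above among the pericyte markers, of which Cspg4 and Mcam were called lower too and Tagln and Cd44 higher. Bloc1s1, the transcript best known for this decay, differed by -0.19 without passing (adjusted p = 0.224 from limma).

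Genes of neighbouring stress responses were counted in the same way. Of 11 cytosolic heat shock genes 0 were called in limma, 1 had an unadjusted p under 0.05 (27.7% of all probe sets) and 0 passed the methods' analysis of variance. Of 12 mitochondrial chaperones and proteases, Dnaja3 was called higher (0.38, adjusted p = 0.0348 from limma) and Htra2 lower (-0.36, adjusted p = 0.0330), which is 16.7% of that list against 9.1% of all probe sets.

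**Figure D5:**
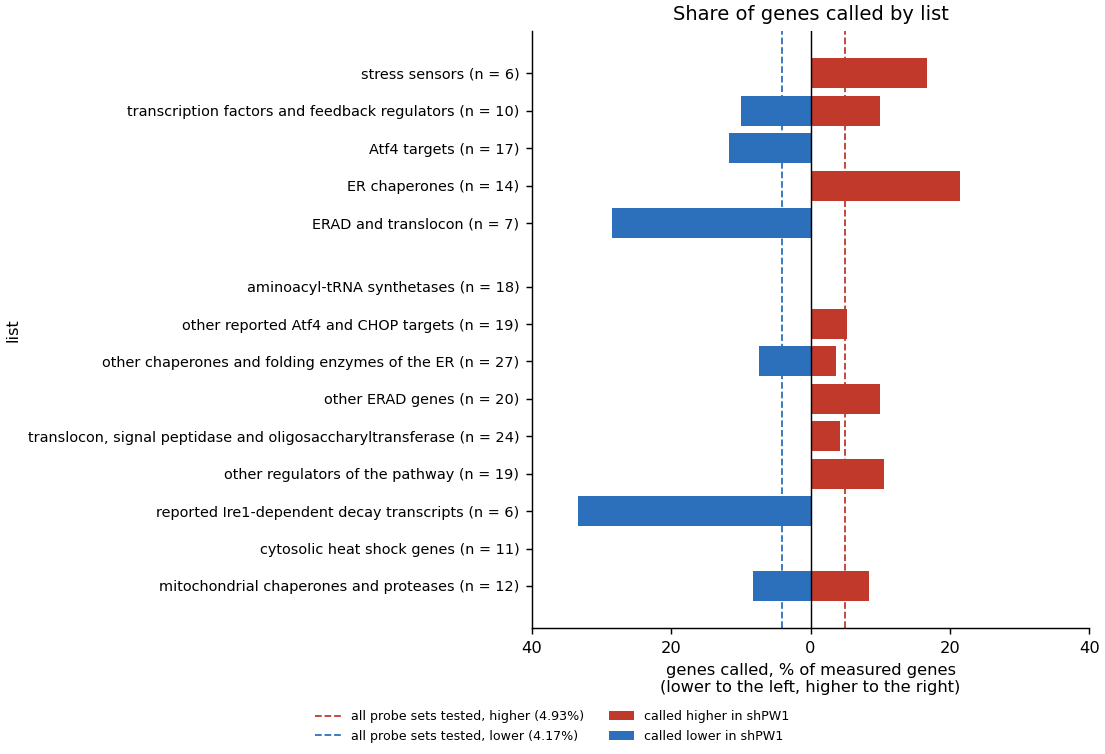
Share of the measured genes called higher (red, to the right) and lower (blue, to the left) in shPW1, in percent, for the 5 roles at the top and the lists of other pathway genes below, with dashed lines for the shares among all probe sets (4.93% and 4.17%). The 14 ER chaperones had calls to the right only and the 7 ERAD and translocon genes to the left only; bars rest on 0 to 3 genes each.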

How the data were processed

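RNA of 2 Ctl and 2 shPW1 extractions was hybridized to 1 Affymetrix Mouse Gene 1.0 ST array each. RMA was run by the authors in Partek, version 6.4 according to the submitters' notes, and log2 expression was deposited, so background correction, normalisation between arrays and summarisation were theirs and were not repeated. Of 35556 rows, the 21789 with exactly 1 gene symbol in the annotation table were tested, and rows with several symbols (1621) or none (12146) were not. The genes of 21698 matched the RefSeq gene table, and other rows kept the annotation's symbol. No detection calls were used here, and the 2 arrays per group limit the precision.

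The comparison used limma 3.58.1 (lmFit, then eBayes) under R 4.3.3, at 2 residual and 2.72 prior degrees of freedom, two-sided, with Benjamini-Hochberg adjustment over all rows tested and calls at 0.05. The script was tested on simulated data with the spread of these arrays. Each size of change was planted in 50 of 21789 probe sets, far fewer than were called here, so recovery here can differ. The script recovered 7 of 50 changes of log2 0.5 and 34 of 50 changes of log2 1.0. A gene that did not pass is therefore not shown to be unchanged. The brightest probe set stood for a gene. The members and gene lists were chosen with earlier results of these data known.

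Every member could be named. Values in all arrays were given for each called member, the largest change of each role and the core genes Ern1, Eif2ak3, Atf6, Xbp1, Atf4, Ddit3, Trib3, Asns, Hspa5 and Herpud1. Vldlr, Sec61b and Bloc1s1 were described further after their values were seen. Of each list of other pathway genes, up to 3 called genes with the largest change were named. Promoter windows came from RefSeq (GRCm38.p6). Alternatives were leaving out dim probe sets (below log2 5.45 in the higher group), testing all rows, a second quantile normalisation, a trended robust prior, subtraction of array medians, the methods' analysis of variance (p under 0.05 and a fold change over 1.2) with and without adjustment, the replicate number as a block, the mean over probe sets of a gene and leaving out each array in turn.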

Additional observations from a re-analysis of the deposited data

How the results depend on the processing

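As reported, 1075 probe sets were called higher and 908 lower, members 5 and 5, and other pathway genes 8 and 5. With dim probe sets left out these were 2237 and 1823, 8 and 10, and 25 and 11; among members, regulators had 3 higher and 3 lower, sensors 1 lower, Atf4 targets 1 higher and ER chaperones 1 lower. With a trended robust prior they were 2735 and 1978, 16 and 11, and 40 and 20, with 4 and 3 for regulators, 5 and 4 for Atf4 targets, 6 and 1 for chaperones and 1 lower for sensors. With all rows tested they were 36 and 50, 0 and 0, and 0 and 0, and every role count was 0. Both the fit and its correction then ran over 35556 rows. The methods' analysis of variance with adjustment left 1 and 1 probe sets, 0 members in every role and 0 other pathway genes, and Peg3 at -2.34 no longer passed (adjusted p = 0.105). Without adjustment it called 13 other pathway genes higher and 2 regulators lower. After subtraction of array medians 1637 probe sets were higher and 698 lower, with 13 other pathway genes higher and 1 Atf4 target lower. After a second quantile normalisation 3 members were higher, 0 of them regulators, and 8 other pathway genes were lower. The cause was not tested for these settings. With each array left out in turn all these counts were 0 (lowest and highest 0), fewer arrays being tested, and Peg3 ranged from -2.47 to -2.21.

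Neither the labels nor the methods state a pairing by replicate number. The correlation of the deviations of same-numbered arrays was -0.11, which cannot decide whether the extractions were paired. With the replicate block 256 probe sets were higher and 258 lower, members 0 and 1 (Edem1, adjusted p = 0.0412, the ERAD and translocon group), every other role 0, and other pathway genes 1 and 1. With the crossed pairing, chosen after seeing the data, the counts were 213 and 224, 0 members in any role, and 1 and 1.

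None of the 10 called members changed direction, a change that only a second quantile normalisation or subtraction of array medians could have made. Members near 0 did change direction. After subtraction of array medians Crebrf was at 0.025, Aldh1l2 at 0.031, Hspa5 at 0.033, Calr at 0.026, Creld2 at 0.060 and Syvn1 at 0.039. After a second quantile normalisation Cebpg was at -0.012, Crebrf at 0.020, Cth at -0.028, Slc7a5 at -0.038, Slc1a5 at -0.011 and Pdia3 at -0.046. With an array left out, Eif2ak1 ranged from -0.14 to 0.0058, Crebrf from -0.12 to 0.038, Pdia3 from -0.015 to 0.023, Syvn1 from -0.079 to 0.028, Cth from -0.052 to 0.057, Creld2 from -0.071 to 0.062, Slc7a3 from -0.031 to 0.20 and Calr from -0.080 to 0.0021.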
